A study of Mus musculus with 4 samples.

Results

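The regions described here were open, by peak call, in differentiated wild type beige adipocyte cultures and in none of the other 3 conditions of the series. They were selected on the peak lists themselves. Peaks of 4 ATAC-seq libraries on chromosomes 1 to 19 were merged where they overlapped by at least 1 bp, and a merged region was kept when it held a WT D8 peak and no WT D0, HY D0 or HY D8 peak. The rule kept 2174 of 98469 merged regions, which is 6.04% of the 36020 regions with a WT D8 peak. These 2174 regions covered 295 kb in all and are called WT D8-only regions below. ATAC-seq cuts and tags accessible DNA with the transposase Tn5, so that a peak is a stretch where tags pile up above the local background.

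The cells were im-scWAT cells, immortalised stromal vascular cells from the subcutaneous white fat of 5-week-old mice. WT cells carried Jmjd1a +/+ and HY cells Jmjd1a HY/HY, a knock-in that exchanges a histidine for a tyrosine in JMJD1A and removes its activity as a histone H3 lysine 9 demethylase. D0 cells were confluent and undifferentiated. D8 cells had received indomethacin, dexamethasone, 3-isobutyl-1-methylxanthine, rosiglitazone, insulin and T3 for 2 days, followed by insulin, T3 and rosiglitazone for 6 days. Each of the 4 groups was 1 library. The WT and HY cells were separate immortalised cultures, so that the allele, the culture and the library cannot be told apart, and no p-value was computed between groups. Intervals below are 95% intervals and cover counting error only.

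Beige adipocytes are fat cells that burn fuel for heat through UCP1, a carrier in the inner mitochondrial membrane. During their differentiation PPARG and the C/EBP factors open and activate fat cell enhancers, and EBF2 and NFI factors take part in opening those of brown and beige fat. Methylation of lysine 9 on histone H3 goes with silent chromatin, and JMJD1A removes it. Enhancers are mostly distal from promoters and more specific to a cell type than promoters are.

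The labelled cell state was checked by promoter peaks of marker genes, counted from 1000 bp upstream to 100 bp downstream of a transcription start site (TSS). Of 12 beige adipocyte markers, 10 had a promoter peak in each D8 list, against 4 in WT D0 and 5 in HY D0. Ucp1 and Dio2 had none in any list. Of 6 preadipocyte markers, 6 had a promoter peak in WT D0, 4 in HY D0 and 1 in each D8 list. None of 5 macrophage markers had one in any list. Of 5 endothelial markers, 0 had one in WT D8 and 1 in HY D8, after 3 in WT D0 and 2 in HY D0. Of 5 smooth muscle markers, 4 had one in each D0 list and 3 in each D8 list. The genome-wide background, which is proportional to the tags used, was 0.931 times that of WT D8 in HY D8, 1.24 times in WT D0 and 1.33 times in HY D0. The absolute number of tags is unknown.

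The sequences of the strongest WT D8-only regions are shown because their calls rest on the most tags over background. They are not typical of the class, in which 20 of 2174 reached a -log10 q of 10. The sequences are the + strand of mm9, the WT D8 summit with 100 bases on each side, for the 6 distal and 3 promoter regions with the lowest q and for the strongest region within 50 kb of a thermogenic or adipocyte gene. Each is named by the gene with the nearest TSS. Capitals mark matches to the consensus letters that were searched. Of these 10 windows, those of the promoters of Rpp25 and Sh3yl1 hold UTR bases and are described by their values only, which leaves 8.

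Irx2, chr13:72736761-72736961: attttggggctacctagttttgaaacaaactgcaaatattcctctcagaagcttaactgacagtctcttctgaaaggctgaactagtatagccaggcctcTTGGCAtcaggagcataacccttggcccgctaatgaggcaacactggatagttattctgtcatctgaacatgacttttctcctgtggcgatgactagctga
Pabpc1, chr15:36574247-36574447: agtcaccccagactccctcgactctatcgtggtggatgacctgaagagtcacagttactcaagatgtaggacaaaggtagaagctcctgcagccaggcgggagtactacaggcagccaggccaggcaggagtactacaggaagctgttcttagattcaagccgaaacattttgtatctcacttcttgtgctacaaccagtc
Papola, chr12:107028446-107028646: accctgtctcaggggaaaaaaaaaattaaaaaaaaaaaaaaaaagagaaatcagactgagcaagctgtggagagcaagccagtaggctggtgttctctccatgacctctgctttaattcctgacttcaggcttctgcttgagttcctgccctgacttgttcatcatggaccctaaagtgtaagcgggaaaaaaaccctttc
Syne2, chr12:76921229-76921429: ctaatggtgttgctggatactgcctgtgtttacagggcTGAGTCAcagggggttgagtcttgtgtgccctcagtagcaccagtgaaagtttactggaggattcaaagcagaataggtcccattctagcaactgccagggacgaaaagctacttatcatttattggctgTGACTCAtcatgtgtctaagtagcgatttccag
Camkk2, chr5:123210955-123211155: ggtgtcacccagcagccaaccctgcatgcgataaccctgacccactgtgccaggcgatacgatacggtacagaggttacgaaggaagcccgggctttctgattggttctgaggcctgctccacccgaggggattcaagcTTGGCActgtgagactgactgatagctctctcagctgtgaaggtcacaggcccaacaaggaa
Tbc1d1, chr5:64680885-64681085: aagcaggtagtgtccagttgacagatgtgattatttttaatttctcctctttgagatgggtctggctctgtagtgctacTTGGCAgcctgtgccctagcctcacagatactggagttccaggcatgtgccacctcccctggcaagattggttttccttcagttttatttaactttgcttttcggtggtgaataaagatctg
Dlgap4, chr2:156545786-156545986: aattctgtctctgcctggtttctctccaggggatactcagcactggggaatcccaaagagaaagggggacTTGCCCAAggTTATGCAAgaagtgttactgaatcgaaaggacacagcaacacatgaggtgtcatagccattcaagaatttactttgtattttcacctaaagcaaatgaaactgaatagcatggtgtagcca
Ucp1, chr8:85811643-85811843: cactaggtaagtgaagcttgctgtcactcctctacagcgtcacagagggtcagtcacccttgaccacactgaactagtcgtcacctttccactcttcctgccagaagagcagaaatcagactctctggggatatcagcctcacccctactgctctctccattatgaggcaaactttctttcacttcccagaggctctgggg

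The capitals in the Irx2, Camkk2 and Tbc1d1 windows are NFI half-sites (TTGGCA), in the Irx2 window at the summit itself. The Syne2 window holds a pair of AP-1 letters (TGANTCA), on either side of the summit. The Dlgap4 window holds a pair of C/EBP matches (TTGCNNAA) at -30 and -20 bp from the summit. The windows of Pabpc1, Papola and Ucp1 hold no match to any of the 11 consensus strings, which says only that these letters are not in the window.

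The region near Irx2 had the lowest q of all 2174. Irx2 encodes a homeobox transcription factor. The peak lay at chr13:72736795-72737010, in intergenic sequence -29.4 kb from the TSS, with a WT D8 pileup of 15 overlapping tags over a local background of 0.531 and a -log10 q of 14.7. It stood far from the peaks of the other lists: the nearest peaks of WT D0, HY D0 and HY D8 were 24462, 24541 and 28900 bp away. The region -35.6 kb from Pabpc1, the cytoplasmic poly(A)-binding protein gene, was different. Its pileup was 26 over a background of 2.62, and a HY D8 peak with a pileup of 44 began 445 bp from it. Both sites were absent from the other lists by the same rule, but only the former lay far from other open chromatin.

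The other leading regions were mostly intronic. Papola, a poly(A) polymerase gene, held a region at +5.46 kb with a pileup of 17 over 0.828. The nearest HY D8 peak was 4872 bp away. Syne2, which encodes a nuclear envelope protein, held a region at +1.99 kb with a pileup of 26 over 2.91, 821 bp from a HY D8 peak. Camkk2, the kinase that activates AMPK in response to calcium, held a region at +3.2 kb with a pileup of 17 over 0.936, 3993 bp from a HY D8 peak. In Tbc1d1, a regulator of glucose transporter traffic, the region at -8.78 kb had a pileup of 19 over 1.53 but was flanked by peaks of WT D0, HY D0 and HY D8 at 112, 102 and 119 bp. The remaining regions among the 20 with the lowest q had pileups between 12 and 24. Papola and Syne2 are on chromosome 12, which stands apart between the genotypes as described further on.

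WT D8-only regions were weak peaks beside the other WT D8 regions. These values come from the list that chose the regions and are a description. The pileup at the summit had quartiles of 7, 8 and 11 tags and ran from 5 to 84, and the local background had a median of 0.801. The -log10 q had a median of 4.17 and ran from 1.32 to 14.7, against a median of 9.09 over all WT D8 regions and 7.23 over the 5920 regions opened at D8 in both genotypes, which held a WT D8 and a HY D8 peak and no D0 peak. The median width was 121 bp, against 212 bp for regions opened in both genotypes. Of the WT D8-only regions, 568 (26.1%) had the smallest width in the list (90 bp) or 1 bp more, against 350 (5.91%) of those opened in both genotypes.

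The share of WT D8 regions that were found in no other list fell with strength up to a -log10 q of 15. It was 32.1% (71 of 221) at a -log10 q up to 2, 19.6% (567 of 2890) between 3 and 4, 10.4% (350 of 3362) between 5 and 6 and 2.02% (66 of 3271) between 8 and 10. Between 10 and 15 it was 0.362% (20 of 5519). Between 15 and 20 it was 0 of 3386, which allows a share of up to 0.109%, and above 20 it was 0 of 7571, which allows up to 0.0487%. Thus none of the WT D8 regions above 15 lacked a peak in all 3 other lists.

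**Figure D1:**
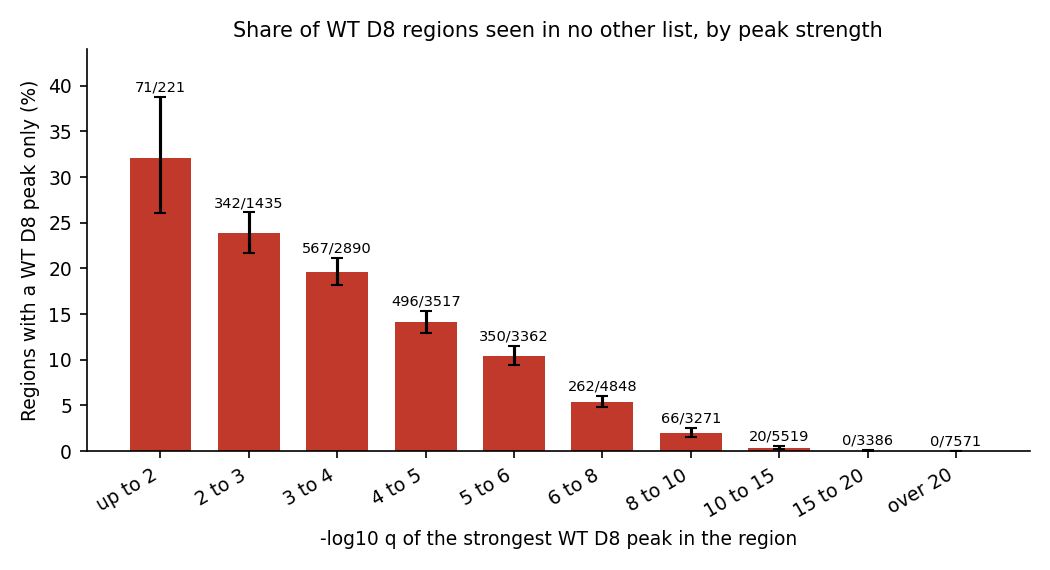
Share of merged regions with a WT D8 peak that held no peak of the other 3 lists (y axis, percent) by the -log10 q of the WT D8 peak (x axis). Bars are shares, lines are exact 95% binomial intervals, and the numbers above them are regions kept over regions in the class. The share falls from 32.1% in the weakest class to 0 of 7571 in the strongest.

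The members were set beside the smallest pileup that the HY D8 list could call. At the relative depth of 0.931, the median smallest pileup that could be called at the members was 5 tags, beside a median WT D8 pileup of 8, and 168 members (7.73%) had a scaled pileup of at least 2 times the smallest callable one. The scaled values of 2118 members (97.4%) passed the lowest p of the HY D8 list, a share largely fixed by the choice of the members, which had passed a like limit in WT D8. Whether the members were missed in HY D8 at this limit was not tested. The number of HY D8 tags at the members is unknown, because the files hold called peaks only. The reverse class was larger. HY D8-only regions numbered 4898, 2.25 times as many, and were also weak, with a median pileup of 7 and a median -log10 q of 3.5. They made up 11.1% of the 44228 HY D8 regions, against the 6.04% of WT D8 regions kept here.

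A large part of the members lay close to peaks of the other lists. The nearest peak of any other list was a median of 1798 bp away, and 648 members (29.8%) had one within 500 bp, 492 of them from HY D8. At the edge of the rule, 18 members had a peak of another list within 10 bp. Their pileups ran from 5 to 19 with a median of 8, and their median -log10 q was 3.2. Just outside it, 30 WT D8 regions overlapped the peaks of the other lists by 10 bp or less in all, with pileups from 5 to 15 and a median of 8, and with a median -log10 q of 4.28. Members were scattered, with a median of 142 kb to the next, and 688 (31.6%) had another member within 50 kb.

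Most WT D8-only regions were distal. By the summit, 1067 (49.1%) fell in introns, 779 (35.8%) in intergenic sequence, 136 (6.26%) in exons and 192 (8.83%, 7.67 to 10.1) at promoters. Promoters held 5.84% of the regions opened in both genotypes, 6.04% of HY D8-only regions and 42.8% of the 23856 regions with a peak in all 4 lists. WT D8-only regions were thus mostly distal, as were the regions opened in both genotypes and HY D8-only regions. Their promoter share was 2.99 percentage points (1.7 to 4.38) above that of the regions opened in both genotypes. It was 2.79 points (1.47 to 4.2) above that of HY D8-only regions. Exons followed the same direction, with 1.78 points (0.684 to 2.98) above the regions opened in both genotypes. The median distance to a TSS was 10.2 kb, against 12.3 kb and 14.4 kb.

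The higher promoter share was also seen at like pileup. At a pileup of 15 or more, 17.6% of WT D8-only regions (31 of 176) were at promoters against 7.7% of regions opened in both genotypes, a difference of 9.91 points (4.86 to 16.3). At 11 to 14 tags the shares were 10% and 4.25%, and at 5 to 6 tags 8.38% and 4.09%. At 7 to 8 tags the interval of the difference, -0.538 to 3.94 points, included 0. Against HY D8-only regions, the difference was 4.37 points (1.72 to 7.8) at 5 to 6 tags, 1.81 (-0.165 to 3.99) at 7 to 8 and 3.22 (0.242 to 6.49) at 9 to 10. It was -1.7 points (-5.64 to 2.46) at 11 to 14 tags and 0.46 (-6.49 to 7.93) at 15 or more, where 17.2% of HY D8-only regions were at promoters. Promoter members lay close to other peaks: 95 of 192 (49.5%) had a peak of another list within 500 bp, against 553 of 1982 (27.9%) of the other members. When peaks of the other lists were extended by 500 bp, the promoter difference from regions opened in both genotypes was 1.17 points.

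**Figure D2:**
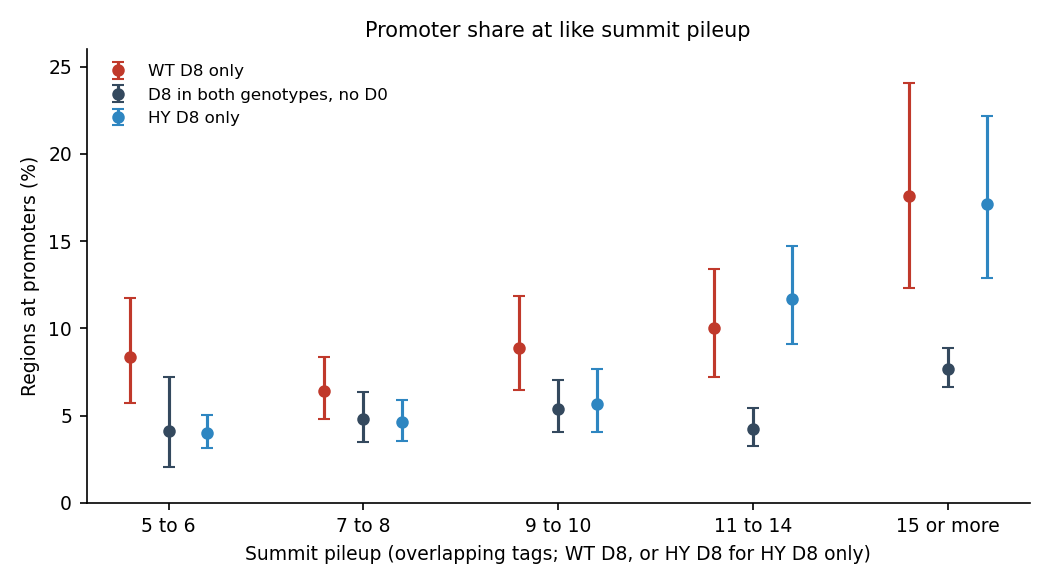
Share of regions at promoters (y axis, percent) by the number of overlapping tags at the summit (x axis), with exact 95% binomial intervals. Red points are WT D8-only regions, dark points regions opened at D8 in both genotypes and blue points HY D8-only regions. At 15 or more tags the 3 shares are 17.6%, 7.7% and 17.2%.

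The 192 promoter members belonged to 189 different nearest genes, 173 of them protein-coding. The strongest was at -0.422 kb of Dlgap4, a postsynaptic scaffold gene, with a pileup of 24 over 3.19 and a -log10 q of 10.9. It was 485 bp from a HY D8 peak with a pileup of 28. Rpp25, which encodes a subunit of RNase P, followed at -0.024 kb with a pileup of 13 over 0.873. Sh3yl1 on chromosome 12 had a region at +0.092 kb with a pileup of 15 over 1.37, 210 bp from a HY D8 peak. These 3 regions lay 189, 1374 and 232 bp from WT D0 peaks with pileups of 31, 54 and 41.

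Plin5 was unlike these. It encodes perilipin 5, a lipid droplet protein that brings droplets and mitochondria together in tissues that burn fat. Its promoter member had the largest width in the class, 464 bp, and covered the TSS with a pileup of 23 over 3.73 and a -log10 q of 8.72. The nearest HY D8 peak was 2610 bp away with a pileup of 22, and the D0 peaks were 7213 bp and 7014 bp away. No peak was called over the Plin5 TSS in HY D8. Other members within 10 kb of that same TSS lay at +8.66 kb, with a pileup of 43, and at -4.51 kb, with a pileup of 18. Spon1 and Sim2 promoters also lay far from HY D8 peaks, at 27867 bp and 50596 bp, but with pileups of 10 each. Among the other promoter members with low q were those of 1110034G24Rik, Osbpl9, Orm2 and Sp140, with pileups of 15, 11, 18 and 14.

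WT D8-only regions lay near thermogenic genes such as Ucp1, Ppara, Cidea and Ppargc1b and near genes of general fat cell function such as Adipoq and Cd36. Over all 21281 protein-coding genes, 3307 (15.5%) had a member within 50 kb of a TSS. Of 19 thermogenic genes 8 had one, and of 20 adipocyte genes 9. The lists of adrenergic and cAMP signalling, mitochondrial regulators and fatty acid oxidation had 7, 6 and 6 of 20 each. Among lists of other cell types the counts were 2 of 20 preadipocyte genes, 3 of 15 smooth muscle, 2 of 15 macrophage, 2 of 15 endothelial, 3 of 19 liver and 0 of 19 neuron genes. These lists were chosen with earlier results of these data known, and the counts are a description.

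The thermogenic count was the same for the reverse class. HY D8-only regions lay within 50 kb of 8 of 19 thermogenic and 17 of 20 adipocyte genes, where 26.4% of all protein-coding genes had such a region. Regions opened in both genotypes lay near 13 of 19 and 20 of 20, where 28.7% of all did. Of the 8 thermogenic genes with a WT D8-only region, Cidea and Cox7a1 had no region opened in both genotypes within 50 kb, and the other 6 had at least 1. Within 10 kb of a TSS, 3 of 19 thermogenic and 4 of 20 adipocyte genes had a member, against 4.96% of all protein-coding genes. The counts were 4 and 5 for HY D8-only regions and 8 and 18 for regions opened in both genotypes. The share of all genes at 10 kb is not given here for those 2 classes.

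Ucp1 had a single member, and it was the strongest of those near the thermogenic and adipocyte genes. It lay at chr8:85811667-85811832, -2.5 kb from the TSS, the stretch of the 5′ flank that holds the long-studied enhancer of the mouse gene. Its WT D8 pileup was 14 over a background of 1.09, with a fold of 7.18 and a -log10 q of 9.07. No peak was called there in HY D8. The nearest HY D8 peak was 2088 bp further upstream with a pileup of 11, and it overlapped WT D8 peaks with pileups of 7 and 10. No D0 peak lay within 8985 bp in WT or 8990 bp in HY. Hence the WT D8 list had called peaks at both upstream sites and the HY D8 list at the more distant site only.

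Ppara, which encodes the nuclear receptor that drives fatty acid oxidation, had 3 members at -32.5, -14.6 and -14.1 kb. Their pileups were 20, 22 and 17 over local backgrounds of 4.89, 3.94 and 3.99, which is far above the genome-wide rate of 0.531. The nearest HY D8 peaks were 168, 2109 and 2463 bp away. The member at -32.5 kb was thus beside a HY D8 peak, whereas those at -14.6 and -14.1 kb formed a pair without one. Ppara also had 6 regions opened in both genotypes within 50 kb. Ppargc1b, a coactivator of mitochondrial genes, had a member at +2.35 kb with a pileup of 16 over 5.21 and a -log10 q of 2.05, and one at -47.2 kb with a pileup of 16 over 2 and a -log10 q of 7.42. HY D8 peaks with pileups of 22 and 29 lay 568 and 527 bp from them. Ppargc1a had no member within 50 kb.

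Cidea, a lipid droplet protein gene of brown and beige fat, had a member at -13.6 kb with a pileup of 10 over 0.864, 5324 bp from the nearest HY D8 peak. Elovl3, a fatty acid elongase gene, had one at -23.2 kb with a pileup of 10 over 1.38. Prdm16, a regulator of brown and beige fat identity, had a member of 90 bp at the TSS with a pileup of 11 over 1.67, and a HY D8 peak with a pileup of 12 lay 225 bp away. The members counted for Esrra and Cox7a1 were at +12.7 kb and +10.4 kb and fell in the promoters of neighbouring genes, Prdx5 and Capns1. Prdx5 encodes a peroxiredoxin, and its promoter member had a pileup of 17 over 3.29.

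**Figure D3:**
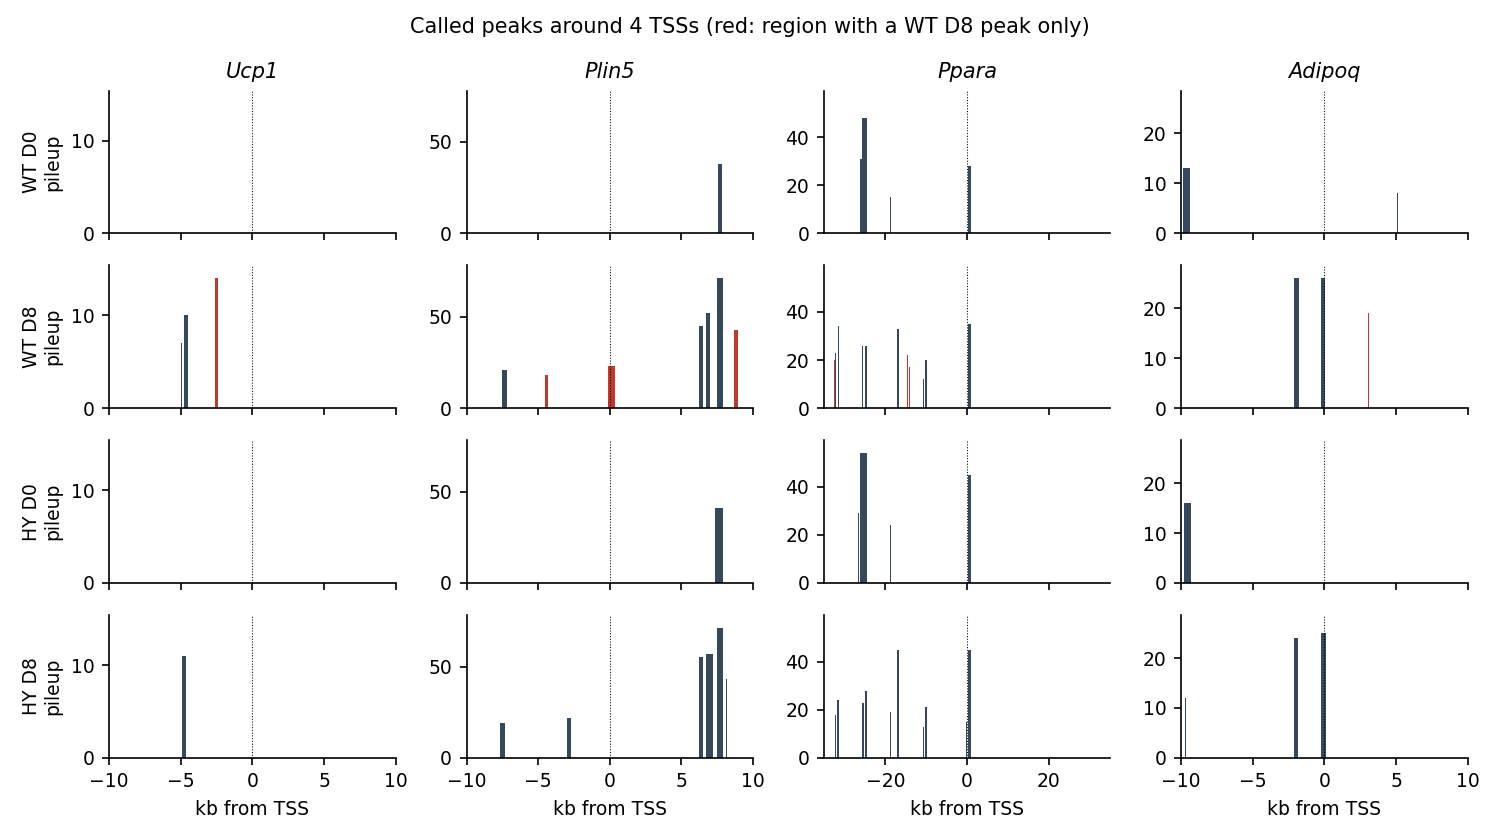
Called peaks of the 4 libraries (rows) around the TSSs of Ucp1, Plin5, Ppara and Adipoq (columns). The x axis is the distance from the TSS in kb in the direction of transcription, the height is the summit pileup in tags, and red marks peaks in WT D8-only regions. The red peak at -2.5 kb of Ucp1 (pileup 14) and that over the TSS of Plin5 (pileup 23) have no HY D8 counterpart.

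Members in the body or flank of adipocyte genes had pileups of up to 20. Adipoq, the adiponectin gene, had a member at +2.96 kb with a pileup of 19 over 3.84, while its promoter was open in both D8 lists. Cd36, a fatty acid transporter gene, had members at -3.76 kb with a pileup of 19 over 3.88 and at +14.3 kb with a pileup of 9 over 1.23. It also had 11 regions opened in both genotypes. Acsl1, which activates long-chain fatty acids, had a member at +7.15 kb with a pileup of 20 over 3.01 and a -log10 q of 8.04. Another, with a pileup of 9, lay at -0.147 kb from a different annotated TSS of Acsl1. The other adipocyte genes with a member were Acaca, at +9.07 kb, and Cebpa, Plin1, Cfd, Dgat2 and Scd1, all farther from the TSS than that.

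Fatty acid oxidation genes had intronic members within a few kb of the TSS. Cpt2, the inner carnitine palmitoyltransferase gene, had one at +2.05 kb with a pileup of 19 over 3.33. Eci1 and Decr1, auxiliary enzymes for unsaturated fatty acids, had members at +3.13 and +5.72 kb with pileups of 18 and 10, both within 389 bp of a HY D8 peak. Acadm and Etfa had one each with pileups of 9 and 6.

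Among mitochondrial regulators the members were weaker. Tfam, which packages and transcribes mitochondrial DNA, had one at -13.7 kb with a pileup of 8 over 0.531, and the nearest HY D8 peak was 13610 bp away. Yy1 on chromosome 12 had a promoter member at -0.669 kb with a pileup of 15 over 3.81. Polrmt, Mterfd3, Peo1 and Pprc1 had members 10.5 to 37 kb away with pileups of 7 to 10, that of Pprc1 being the Elovl3 member. In the adrenergic and cAMP list, Pde4b, a cAMP phosphodiesterase gene, had 4 members with pileups of 8, 6, 8 and 11. Prkar2b, a regulatory subunit of protein kinase A on chromosome 12, had 2 with pileups of 14 and 16, the former 98 bp from a HY D8 peak. Adcy5, Prkaca, Pde4d, Crtc3 and Akap1 had 1 or 2 each, with pileups of 5 to 11.

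The genes with most members within 50 kb were Col4a2, Psmc3ip and Sik3, with 5 each. Col4a2 encodes a collagen IV chain and Sik3 a salt-inducible kinase, while Psmc3ip encodes a recombination factor. The Sik3 members had pileups of 13, 8, 7, 6 and 14, all inside the gene. The Col4a2 members had pileups between 7 and 15 and lay in introns of Col4a1, Col4a2 and Rab20. Those of Psmc3ip had pileups between 7 and 10, and none had Psmc3ip as the gene with the nearest TSS. Their nearest TSSs were those of Atp6v0a1, Fam134c, Tubg1 and Tubg2. Gene length and the number of TSSs were not taken into account in these counts. Ablim1 and Amz1 had 4 each and were named alphabetically among genes with 4. Col4a2 and Sik3 also had 5 and 7 regions opened in both genotypes, whereas Psmc3ip had 2 and Amz1 had 0.

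C/EBP and NFI letters were less frequent in WT D8-only regions than in regions opened in both genotypes, while the ratios for EBF and PPARG:RXR had intervals that included 1. Strings were searched on both strands in the 100 bases on each side of each summit, with N for any base. C/EBP letters (TTGCNNAA) were found in 20.6% of members (18.9 to 22.3). They were in 9.91% of regions with a peak in all 4 lists and in 11.4% of all merged regions. In regions opened in both genotypes they were in 26.6%, and the ratio of the shares was 0.772 (0.704 to 0.847). NFI half-sites (TTGGCA) were in 21.6% of members and 27.2% of regions opened in both genotypes, a ratio of 0.795 (0.727 to 0.871). HY D8-only regions had shares of 21.2% and 23.1%, with intervals of the ratio that included 1 for both.

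EBF letters (TCCCNNGGGA) were in 2.48% of members and in 2.48% of regions opened in both genotypes, with a ratio of 1 (0.735 to 1.36), and in 1.36% of all merged regions. The direct repeat bound by PPARG with RXR (AGGNCANAGGNCA) was in 1.1% of members, 0.302% of regions with a peak in all 4 lists and 0.374% of all merged regions. The ratio to regions opened in both genotypes was 1.19 (0.738 to 1.91). The width of the window mattered here. With 50 bases on each side the ratios were 1.61 (1.02 to 2.54) for EBF and 2.07 (1.08 to 3.97) for PPARG:RXR, and that for C/EBP was 0.919 (0.803 to 1.05) while that for NFI was 0.844 (0.741 to 0.961). Any of these 4 strings was found in 39.4% of members (37.3 to 41.5) and 48.2% of regions opened in both genotypes (47 to 49.5).

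The C/EBP share fell off among the strongest members. It was between 21.9% and 23.7% for pileups of 5 to 10, 17.9% for 11 to 14 and 9.09% (16 of 176) for 15 or more. In regions opened in both genotypes it stayed between 24.5% and 28.3% over the same classes, so that the ratio was 0.661 (0.526 to 0.831) at 11 to 14 tags and 0.341 (0.213 to 0.547) at 15 or more. At 5 to 6, 7 to 8 and 9 to 10 tags, which together hold most members, the ratios were 0.781 (0.595 to 1.03), 0.89 (0.748 to 1.06) and 0.869 (0.717 to 1.05), and each interval included 1. The 176 members with 15 or more tags had a median local background of 3.35, against 0.765 in the others, and 41.5% of them lay within 500 bp of another list's peak. Their promoter share was 17.6%. The C/EBP share was 13.5% in promoter members and 21.2% in distal ones, and 15.9% and 22.5% in members up to and beyond 500 bp from a peak of another list. Whether position or surroundings account for the lower share was not tested.

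Of the other families, CTCF and ETS letters were more frequent in members than in regions opened in both genotypes, and the other intervals included 1. AP-1 letters (TGANTCA) were in 6.99% of members and 7.26% of regions opened in both genotypes, against 14.5% of regions with a peak in all 4 lists and 22% of all merged regions. TEAD letters (CATTCC) were in 11.7% and 11.9%. CTCF letters (CCANNAGNNGGC) were in 2.48% of members and 1.64% of regions opened in both genotypes, a ratio of 1.52 (1.09 to 2.11). Within each pileup class the interval of this ratio included 1. HY D8-only regions held them in 2.27%, and the ratio of members to these was 1.1 (0.795 to 1.51). Regions with a peak in all 4 lists held them in 6.54%. ETS letters (CCGGAAG), common at promoters, were in 1.43% and 0.777%, a ratio of 1.84 (1.17 to 2.89), and in 8.22% of regions with a peak in all 4 lists. The same string read backwards, a comparison of like base content, was in 2.9% of members and 3.82% of regions opened in both genotypes. In both of these classes the ETS letters were thus rarer than the reversed string. The shares for ESRR (TCAAGGTCA), CREB (TGACGTCA) and the glucocorticoid receptor (GNACANNNTGTNC) were 0.552%, 0.184% and 0.874%, with intervals of the ratio that included 1. The median GC content was 50.2% in members and 49.8% in regions opened in both genotypes, and 55.2% and 52.7% at promoters.

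**Figure D4:**
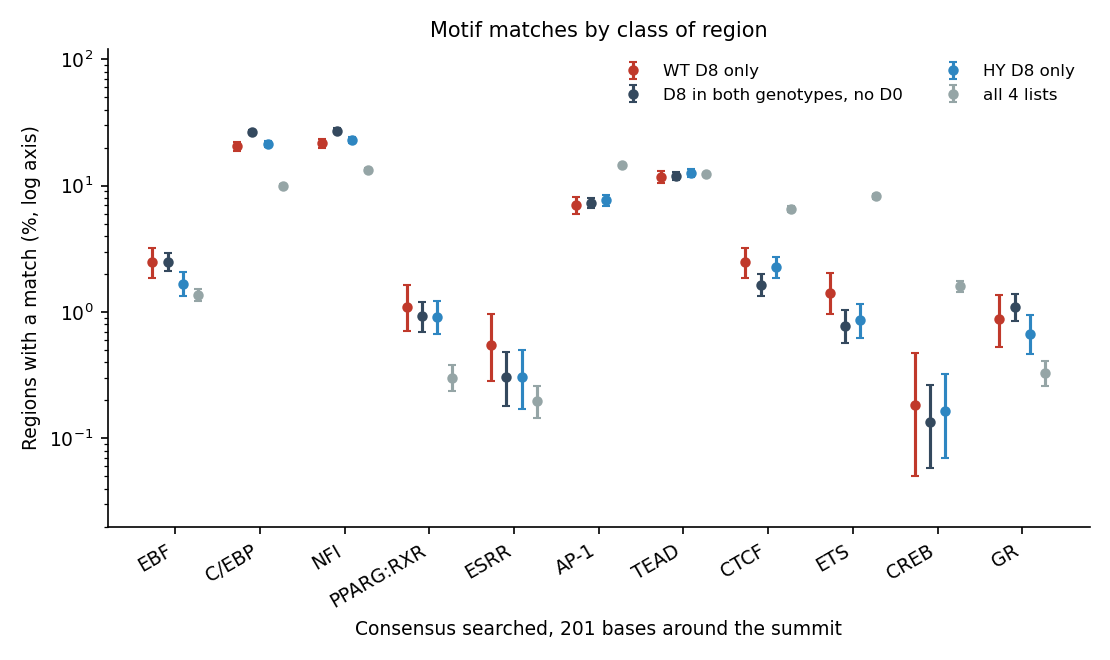
Share of regions with a match to each consensus within 100 bases of the summit (y axis, percent, log axis) in 4 classes of region, with exact 95% binomial intervals. WT D8-only regions (red) lie below regions opened in both genotypes (dark) for C/EBP (20.6% and 26.6%) and NFI (21.6% and 27.2%).

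WT D8-only regions were spread over all 19 chromosomes, but chromosome 12 stood apart. There 121 of 1524 WT D8 regions (7.94%, 6.63 to 9.41) were WT D8-only, and 149 of 1667 HY D8 regions (8.94%, 7.61 to 10.4) were HY D8-only. The number of WT D8-only regions for each HY D8-only region was 0.812, against 0.444 over all chromosomes. On chromosome 14 it was 0.27, from 64 WT D8-only and 237 HY D8-only regions, and on chromosome 15 it was 0.316. The other 16 chromosomes had ratios between 0.326 and 0.575.

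Chromosomes 12, 14 and 15 also differed in the pileup at sites open in every library. At the 916 regions of chromosome 12 with a peak in all 4 lists, the mean log2 ratio of WT to HY pileup was 0.23 above the mean of all such regions at D8 and 0.224 above it at D0. On chromosome 14 it was -0.167 at D8 and -0.136 at D0, and on chromosome 15 it was -0.12 and -0.0857. On the other 16 it lay between -0.0489 and 0.0891 at D8 and between -0.0354 and 0.0493 at D0. Chromosome 16 had a ratio of WT D8-only to HY D8-only regions (0.326) close to that of chromosome 15 but shifts of only -0.0131 at D8 and 0.00482 at D0. The shift on chromosomes 12, 14 and 15 was thus present before differentiation and of like size after it. Peak lists do not tell more copies of a chromosome from more open chromatin on it, so that these cannot be told apart in the counts per chromosome either. The part of the shift in the WT D8-only regions was not tested. Without chromosomes 12, 14 and 15, an alternative chosen after seeing the data, 1890 regions were left, the promoter difference from regions opened in both genotypes was 3.35 points and the C/EBP ratio was 0.774.

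**Figure D5:**
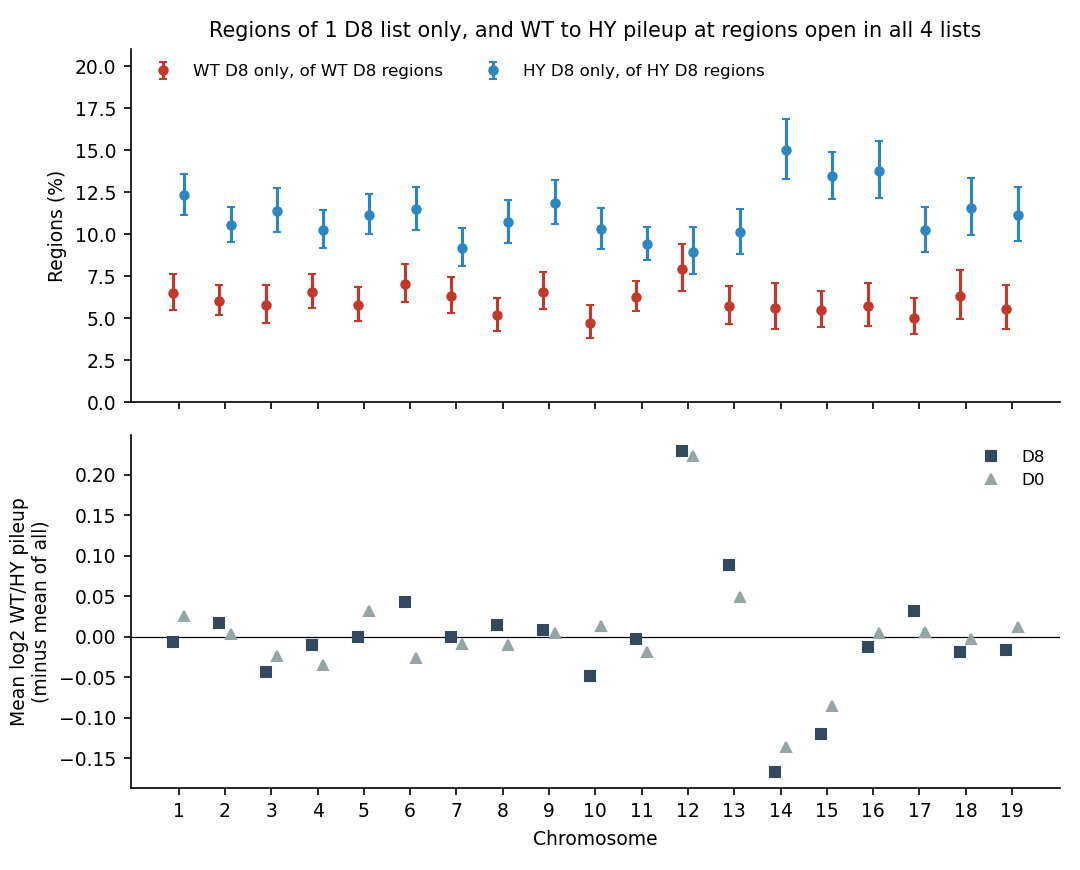
Top, the share of WT D8 regions that are WT D8-only (red) and of HY D8 regions that are HY D8-only (blue) on each chromosome, in percent with exact 95% binomial intervals. Bottom, the mean log2 ratio of WT to HY summit pileup at regions with a peak in all 4 lists, minus its mean over all chromosomes, at D8 and D0. Chromosome 12 lies at 0.23 and 0.224 and chromosome 14 at -0.167 and -0.136.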

How the data were processed

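Peak lists of 4 ATAC-seq libraries, 1 per group, were analysed. The study's methods name adapter trimming, alignment to mm9, duplicate removal and peak calling per library, and the submitters' processing notes list Bowtie2, SAMtools, Picard and deepTools. Versions, the calling threshold and any Tn5 shift are not given in the sources used here. The authors deposited for each peak a fold, which was not normalised between libraries. It was read as the ratio of the pileup at the summit to its local background, with 1 added to each. They also deposited its -log10 p and -log10 q, as the peak caller gave them. The deposited score column, which rescales -log10 q, was not used.

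Members and gene lists were chosen with earlier results of these data known. Peaks were merged with bedtools 2.31.1 (Python 3.11.15, numpy 2.4.6, scipy 1.17.1, pandas 2.3.3). Pileup and local background were solved from fold and -log10 p of each peak (tolerance 0.002), which succeeded for 100% of peaks. The code was tested on simulated data. The lists held 71523 (WT D0), 41228 (WT D8), 77994 (HY D0) and 48964 (HY D8) peaks, and absolute depth is unknown, so that precision was judged from pileups. Chromosomes X and Y and contigs were left out. Positions and gene names came from the NCBIM37 (mm9) sequence with GENCODE annotation, the summit being placed in the order promoter, exon, intron, intergenic. All 205 listed genes were found, 5 under an older symbol, and 202 were protein-coding on chromosomes 1 to 19.

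Shares have Clopper-Pearson intervals, differences of shares Newcombe intervals and ratios log intervals. Named were the 20 regions and 10 promoter regions with the lowest q, the 5 genes with most members and the listed genes with a member within 50 kb. Alternatives changed the overlap, the q minimum, the distance to other peaks, the list length, the promoter window, the gene distance and the motif window.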

Additional observations from a re-analysis of the deposited data

Results flagged for a closer look

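Several measures differed between WT D8-only and HY D8-only regions by more than counting error, by an interval of the difference that leaves out 0, in 15 measures compared and with 1 library for each genotype. The WT D8-only share minus the HY D8-only share was 2.79 percentage points for promoters, 1.46 for exons and -3.9 for intergenic sequence. For consensus letters it was 0.81 points for EBF and 0.568 for ETS. The ETS string read backwards was in 2.9% of WT D8-only and 3.41% of HY D8-only regions, above the shares of the ETS letters themselves. By pileup, the promoter difference was 4.37 points (1.72 to 7.8) at 5 to 6 tags and 3.22 (0.242 to 6.49) at 9 to 10, and the intervals included 0 at 7 to 8 tags (1.81 points), 11 to 14 (-1.7) and 15 or more (0.46).

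Chromosome X was not part of the comparisons. It held 45 regions with a WT D8 peak only, 5.83% of its 772 WT D8 regions (4.28 to 7.72), and 96 with a HY D8 peak only, 10.5% of its 910 HY D8 regions. The mean log2 ratio of WT to HY pileup at its shared regions was 0.0426 above that of the autosomes at D8 and 0.0299 at D0.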

How the results depend on the processing

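Of 43 values recomputed under alternatives, 28 stayed within the interval of the reported value or, for counts, within 1.5 times, 15 moved further and 0 reversed. The number of members was 698 with a -log10 q of at least 5 required in WT D8 only and 4165 with all lists shortened to the same length. The median -log10 q was 4.35 when less than 50% of the WT D8 peak had to be covered. The promoter share was 6.35% with the other lists extended by 500 bp, 10.3% with lists of the same length and 17.6% with a promoter window from 2000 bp upstream to 1000 bp downstream. The promoter difference from regions opened in both genotypes was 1.63 points with a -log10 q of at least 5 in all lists, 1.17 with the extension and 4.87 with the wider window. At 10 kb, 3 thermogenic and 4 adipocyte genes had a member. With 50 bases on each side of the summit the ratios were 1.61 for EBF, 0.919 for C/EBP and 2.07 for PPARG:RXR, and the median GC content was 51.5%. The causes were not tested. No paired analysis was possible because each group is 1 library. The files hold called peaks only, so that tags below the calling limit in HY D8 are unknown, and with a median pileup of 8 in WT D8 a region can be kept by a difference of a few tags.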

Other observations

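Outside the autosomes and sex chromosomes, 13 of 105 WT D8 regions on unplaced contigs and the mitochondrial genome held a WT D8 peak only, and 35 of 144 HY D8 regions held a HY D8 peak only. The number of members per Mb was highest on chromosome 11 (1.48) and lowest on chromosome 14 (0.511). As a share of the WT D8 regions of the chromosome, members made up 6.28% and 5.62%, near the 6.04% over all WT D8 regions.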
